A study of Mus musculus with 6 samples.

Results

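The E proteins Tcf3, Tcf4 and Tcf12 and their inhibitors Id1, Id2 and Id3 were followed in mouse leukaemia cells after induced deletion of Sox4. The members were chosen by gene name, as the widely expressed E-protein genes and 3 Id genes, at a time when earlier results of these data were known. Each of the 6 genes had 1 probe set that names no other gene, so 6 of 19939 genes on the array are described in full. The fourth Id gene, Id4, is given beside them. All samples were pre-B cells of 129SvEv x C57BL/6J mice of 5 weeks, transformed with BCR-ABL1 and homozygous for floxed Sox4. The 3 samples of the ERT2 group carried the transduced control ERT2, an oestrogen receptor domain without a recombinase. The 3 samples of the Cre-ERT2 group carried Cre-ERT2, a recombinase that 4OHT (4-hydroxytamoxifen) activates. RNA of all 6 samples, of both groups, was taken 24 h after 4OHT. No group combined Cre-ERT2 with unfloxed Sox4, so loss of Sox4 and activity of Cre cannot be told apart. The labels do not say that replicates were separate cultures, and p-values therefore reflect the spread among these arrays alone, part or all of which may be technical.

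E proteins are basic helix-loop-helix transcription factors that bind DNA as dimers at short E-box sites. In the bone marrow they are needed to start the B lineage, where they act with Ebf1, Pax5 and Foxo1 and at genes of immunoglobulin rearrangement. Id proteins have the helix-loop-helix through which E proteins pair but lack the basic stretch that touches DNA, so a pair of an E and an Id protein does not bind E-boxes. The ratio of the partners is therefore used as a measure of E-protein activity, and Id genes are themselves switched by BMP, TGF-beta and antigen receptor signals. The arrays measure RNA, and neither protein nor dimers were measured.

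The stretch before the start of a gene is shown for Id3, the member that passed the test, for its relative Id2, which did not, and for Tcf3. The 250 bases before the annotated start come from RefSeq on build GRCm38.p6, each read on the strand of the gene. Capitals mark E-box letters (CANNTG, searched on both strands). The windows are chr4:136143572-136143821 (plus strand) for Id3, chr12:25096093-25096342 (minus strand) for Id2 and chr10:80433636-80433885 (minus strand) for Tcf3.
Id3: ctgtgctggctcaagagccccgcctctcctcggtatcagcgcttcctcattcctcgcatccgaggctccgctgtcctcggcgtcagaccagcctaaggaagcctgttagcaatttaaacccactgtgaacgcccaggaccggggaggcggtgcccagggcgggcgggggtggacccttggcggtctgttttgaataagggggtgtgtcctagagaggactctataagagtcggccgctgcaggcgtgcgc
Id2: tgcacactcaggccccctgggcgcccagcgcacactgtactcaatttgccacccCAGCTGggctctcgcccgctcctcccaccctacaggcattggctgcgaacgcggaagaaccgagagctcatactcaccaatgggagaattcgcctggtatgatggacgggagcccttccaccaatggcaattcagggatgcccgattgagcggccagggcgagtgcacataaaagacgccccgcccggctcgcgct
Tcf3: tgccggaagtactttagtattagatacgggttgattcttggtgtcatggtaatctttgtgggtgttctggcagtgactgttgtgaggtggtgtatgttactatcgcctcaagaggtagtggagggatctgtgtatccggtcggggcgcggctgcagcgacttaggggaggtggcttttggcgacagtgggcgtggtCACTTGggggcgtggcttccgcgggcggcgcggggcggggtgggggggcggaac
The Id3 window held 0 matches to CANNTG, which is found in 66.2% of the 32841 windows of this length. The Id2 window held 1, the palindrome CAGCTG beginning 196 bases before the start, and CAGCTG is found in 13% of windows. The Tcf3 window held 1, CACTTG beginning 54 bases before the start. CAGGTG, the form of the E-box with its reverse CACCTG, was in none of these 3 windows and in 17.2% of all. ACAAAG, the core that Sox factors bind, was searched on both strands too. It was matched once in the Tcf3 window, 197 bases before the start, not in those of Id3 and Id2, and in 16.5% of all windows. Tcf12 had 3 windows, of which 2 held 1 CANNTG match each. ACAAAG was matched once in Tcf12 window 1, 171 bases before that start, and once in window 3, 169 bases before. ACAAT, searched too, was matched once in Tcf12 window 2, in none of the windows of Id3, Id2 and Tcf3, and in 27.7% of all. Id1 had no entry among the windows used. These matches describe letters in a window and no binding.

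Sox4 itself, the floxed gene, read 1459, 1372 and 1237 on the ERT2 arrays and 599, 541 and 499 on the Cre-ERT2 arrays, so its signal was lower in every Cre-ERT2 sample. Median intensity was 273 to 279 on the 6 arrays. Markers of pre-B cells were bright: 0 of 9 measured lay below the median probe set, and their summed intensity ranged from 80867 to 81293 in ERT2 and from 77387 to 78951 in Cre-ERT2 cells. Of NK and innate lymphoid markers 10 of 10 lay below that median, as did 7 of 9 T-cell and 5 of 7 plasmacytoid dendritic cell markers. Summed intensities of NK and innate lymphoid markers were 1212 to 1310 in ERT2 and 1215 to 1308 in Cre-ERT2 cells. Those of T-cell markers were 1738 to 1853 and 1871 to 2068, with Cd5, which some B cells carry too, higher. Those of plasmacytoid dendritic cell markers were 1712 to 1956 and 1717 to 1919, those of erythroid markers 1068 to 1162 and 1104 to 1233, and those of stromal markers 1646 to 1881 and 1750 to 1891. Myeloid markers, 8 of 9 below the median probe set, summed to 1461 to 1538 in ERT2 and 2033 to 2216 in Cre-ERT2 cells. Lyz2 (1.40 on the log2 scale) and Fcgr1 (0.64) were higher and Itgam (-0.49) was lower. The other 6 did not pass. Of these, Ctsg (0.20), Cd14 (0.14) and Mpo (0.13) lay above 0, and Csf1r (-0.02), Elane (-0.07) and Adgre1 (-0.06) below. The part of the myeloid genes in the results below was not tested. In bulk RNA, fewer cells with a transcript and less transcript per cell cannot be told apart.

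Among the Id genes, Id3 fell to 66.3% of its control level, while the values of Id1 and Id2 lay lower without passing the test. Id3, which restrains E proteins in lymphocytes and is induced by antigen receptor signals, read 1044, 1031 and 814 on ERT2 arrays 1 to 3 and 661, 657 and 598 on Cre-ERT2 arrays 1 to 3. The groups did not overlap, and the lowest control, ERT2 replicate 3, was the nearest to them. The mean intensity was 963 ± 129 (SD, n = 3) in ERT2 and 638 ± 35.4 (SD, n = 3) in Cre-ERT2 cells, which is 66.3% of the control mean. The log2 difference was -0.58 (SE 0.107, 95% interval -0.84 to -0.33, limma adjusted p = 0.0264). This call depended on the arrays used. Leaving out a control, it was lost without replicate 1 (limma adjusted p = 0.0955) or 2 (0.0689) and kept without replicate 3 (0.00599). Leaving out a Cre-ERT2 array, it was lost without replicate 1 (limma adjusted p = 0.0738), 2 (0.0821) or 3 (0.106). The difference lay between -0.70 and -0.52 in these 6 fits. Of all genes 359 were called lower with a larger fall than that of Id3.

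Id1, an Id gene switched on by BMP signals in many cell types, read 328, 341 and 326 on the ERT2 arrays and 305, 292 and 262 on the Cre-ERT2 arrays. All Cre-ERT2 arrays lay below all controls, with means of 332 ± 8.04 (SD, n = 3) and 286 ± 22.1 (SD, n = 3). The log2 difference of -0.21 (SE 0.068, 95% interval -0.38 to -0.05) did not pass (limma adjusted p = 0.16). Its probe set lay at the percentile 52.7 of all probe sets, which need not mean clear expression. Mean intensities of 3 stromal markers were higher than those of Id1 in ERT2 and Cre-ERT2 cells. They were 533 and 555 for Col1a1, 355 and 357 for Col1a2, and 372 and 376 for Col3a1. The other stromal markers read lower. The signal of Id1 may therefore lie near background. Id2, which is needed for NK and innate lymphoid cells and opposes the B lineage, read 602, 641 and 595 on the ERT2 arrays and 583, 604 and 542 on the Cre-ERT2 arrays. Here the groups overlapped, since Cre-ERT2 replicate 2 lay above ERT2 replicates 1 and 3. The log2 difference of Id2 was -0.09 (SE 0.0612, 95% interval -0.24 to 0.06, limma adjusted p = 0.579). It came to -0.04 when Cre-ERT2 replicate 3 was left out and to -0.06 when ERT2 replicate 2 was. Id4, an Id gene known mainly from the nervous system, read 262, 262 and 314 in ERT2 and 287, 259 and 258 in Cre-ERT2 cells, a difference of -0.06 (limma adjusted p = 0.851) between overlapping groups. Whether the difference of Id3 exceeds those of Id1 and Id2 was not tested.

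**Figure D1:**
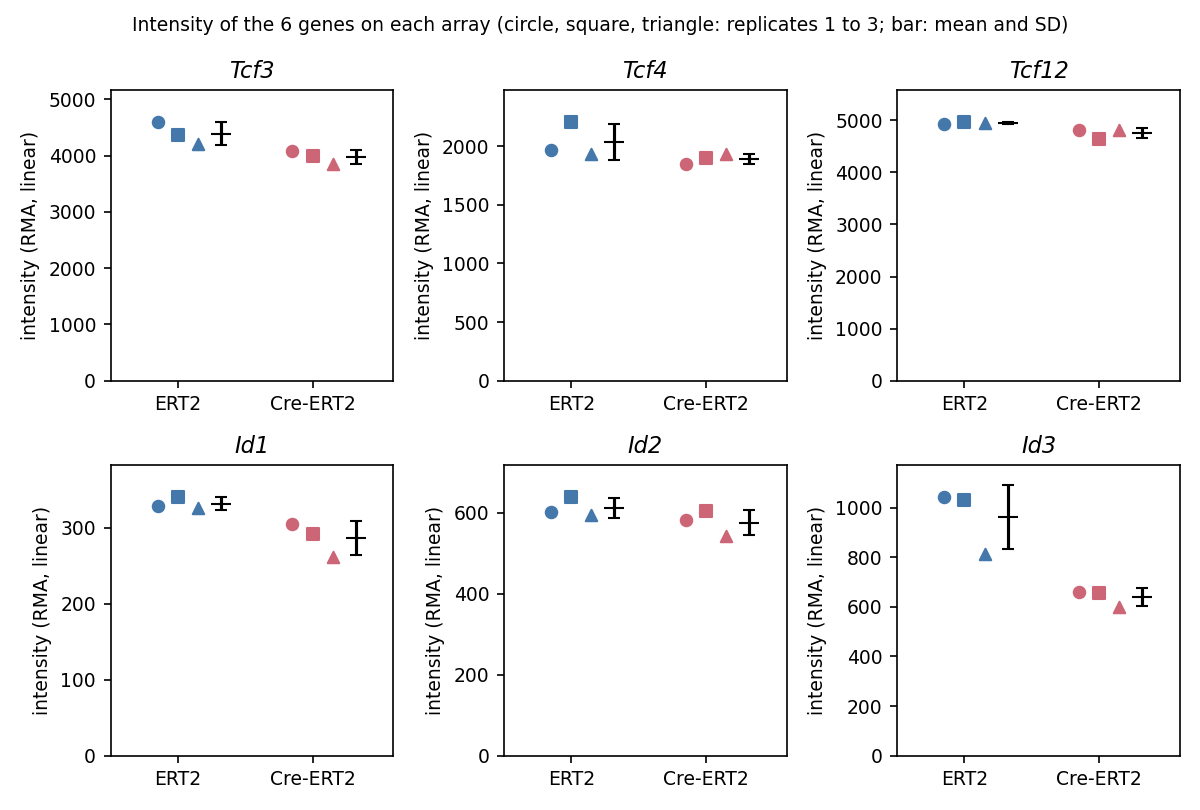
Intensity (RMA, linear axis from 0) of Tcf3, Tcf4, Tcf12, Id1, Id2 and Id3 on each of 3 ERT2 and 3 Cre-ERT2 arrays, with the mean and SD of each group beside the points. Id3 has the widest gap relative to its level, 963 against 638, while the Cre-ERT2 means of the E-protein genes are at least 90.6% of their control means.

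The E-protein genes kept most of their signal, and none of the 3 passed the test. Tcf3, which encodes the E2A proteins, the main E proteins of B-cell progenitors, read 4606, 4360 and 4202 on the ERT2 arrays and 4091, 3996 and 3846 on the Cre-ERT2 arrays. The groups did not overlap, and the Cre-ERT2 mean of 3978 ± 123 (SD, n = 3) was 90.6% of the ERT2 mean of 4390 ± 204 (SD, n = 3). The log2 difference was -0.14 (SE 0.0555, 95% interval -0.27 to -0.01, limma adjusted p = 0.262). Tcf3 makes splice forms that differ in the DNA-binding part, and 1 probe set cannot separate them.

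Tcf12, which encodes HEB, the partner of E2A best known from thymocytes, read 4935, 4976 and 4951 on the ERT2 arrays and 4817, 4637 and 4807 on the Cre-ERT2 arrays. All Cre-ERT2 arrays were lower, but the Cre-ERT2 mean was still 96% of the control mean, and the log2 difference of -0.06 (SE 0.0442, 95% interval -0.17 to 0.05) did not pass (limma adjusted p = 0.61). Tcf4, which encodes E2-2, the E protein that plasmacytoid dendritic cells depend on, read 1964, 2209 and 1936 in ERT2 and 1849, 1897 and 1930 in Cre-ERT2 cells. The groups were separated only by the gap between 1936 and 1930, and ERT2 replicate 2 stood above the other arrays. Its log2 difference was -0.10 (SE 0.0648, 95% interval -0.26 to 0.05, limma adjusted p = 0.524), and it was -0.04 without ERT2 replicate 2 and -0.06 with estimated array weights. These intervals include falls of up to 0.27 and 0.26 on the log2 scale for Tcf3 and Tcf4 and of up to 0.17 for Tcf12, so a modest change is not excluded for any of the 3.

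In all, 1 of the 6 members was called, Id3, and it was lower. Over the array 3.72% of genes were called lower and 4.38% higher, together 8.1%, and of all probe sets 6.05% were called. Which direction held more calls depended on the scaling: 1143 probe sets were higher and 1009 lower as deposited, and 1204 higher and 1368 lower after cyclic loess. All 6 members had differences below 0, against 40.7% of genes, and in 5 of 6 every Cre-ERT2 array lay below every ERT2 array, against 10.8% of genes (28.3% in either direction). At an unadjusted limma p under 0.05, 3 of 6 members passed (Tcf3, Id1 and Id3), against 20.1% of genes. The median difference was -0.10 for the E-protein genes, -0.21 for the Id genes and 0.02 over all genes. Permuting the group labels of 1 member's arrays (exact, two-sided) cannot give a p below 0.1, which is the value for the 5 members without overlap, and gave 0.3 for Id2.

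**Figure D2:**
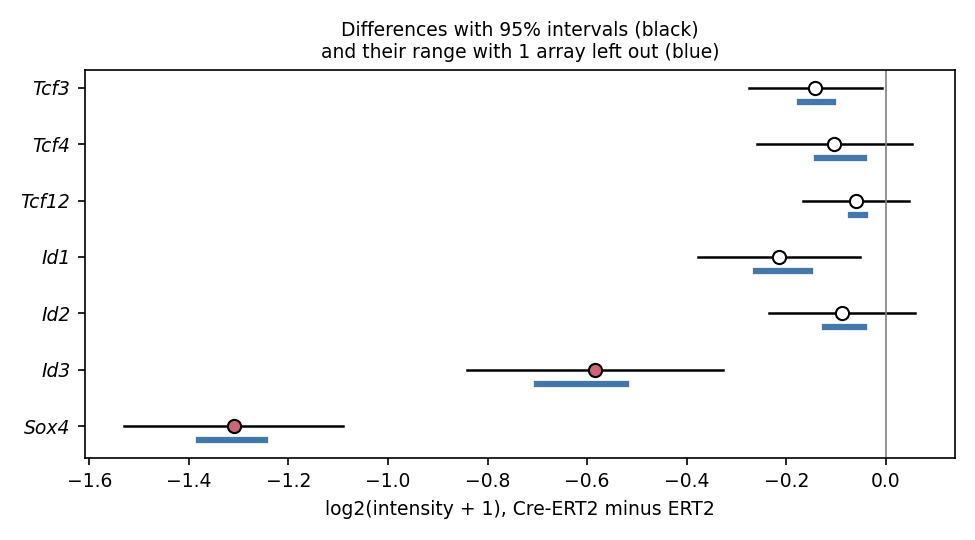
Log2 difference (Cre-ERT2 minus ERT2) of each member and of Sox4, with limma's 95% interval in black and, in blue, its range when 1 of the 6 arrays is left out; filled points passed limma's adjusted p under 0.05. Among the members only Id3 is filled, at -0.58, and the points of the other 5 lie between -0.21 and -0.06.

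The balance of E proteins against Id genes lay further towards the E proteins in every Cre-ERT2 array than in any control, and most of that shift was absent once Id3 was left out. For each array the mean log2 value of Id1, Id2 and Id3 was subtracted from that of Tcf3, Tcf4 and Tcf12 and set to 0 at the ERT2 mean. Probe sets differ in affinity, so the size of the ratio has no meaning, and its change between groups is described without a test. The ERT2 arrays lay at -0.02, -0.03 and 0.05, and the Cre-ERT2 arrays lay at 0.15, 0.14 and 0.30. The groups did not overlap, and Cre-ERT2 replicate 3 was highest. The mean shift was 0.19 log2 units with SDs of 0.048 in ERT2 and 0.088 in Cre-ERT2 arrays (n = 3 each). It was made of a mean difference of -0.10 in the E-protein genes and of -0.30 in the Id genes, so both sides were lower and the Id side more so. Without Id3 the shift was 0.05 log2 units, and the Cre-ERT2 arrays at 0.00, -0.01 and 0.16 overlapped the ERT2 arrays at 0.03, -0.01 and -0.01. Id3 had the largest fall of the Id genes, so leaving it out had to lower the shift.

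The 9 pairs of an E-protein and an Id gene restate the member values pair by pair and are no separate support. In all 3 pairs with Id3 the groups were apart. The log2 ratio of Tcf3 to Id3 was higher by 0.44 in Cre-ERT2 cells, with Cre-ERT2 arrays between 0.41 and 0.49 and ERT2 arrays between -0.12 and 0.17 around their mean. Against Id3 the ratio was higher by 0.48 for Tcf4 and by 0.52 for Tcf12. Of the 6 pairs with Id1 or Id2, only Tcf12 with Id1 was apart, by 0.16 (Cre-ERT2 arrays from 0.08 to 0.30, ERT2 arrays from -0.03 to 0.02). The remaining 5 pairs overlapped, with shifts from -0.05 for Tcf3 with Id2 to 0.11 for Tcf4 with Id1. These pairs share their genes and are not independent of each other, and the Id1 values in them may lie near background.

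**Figure D3:**
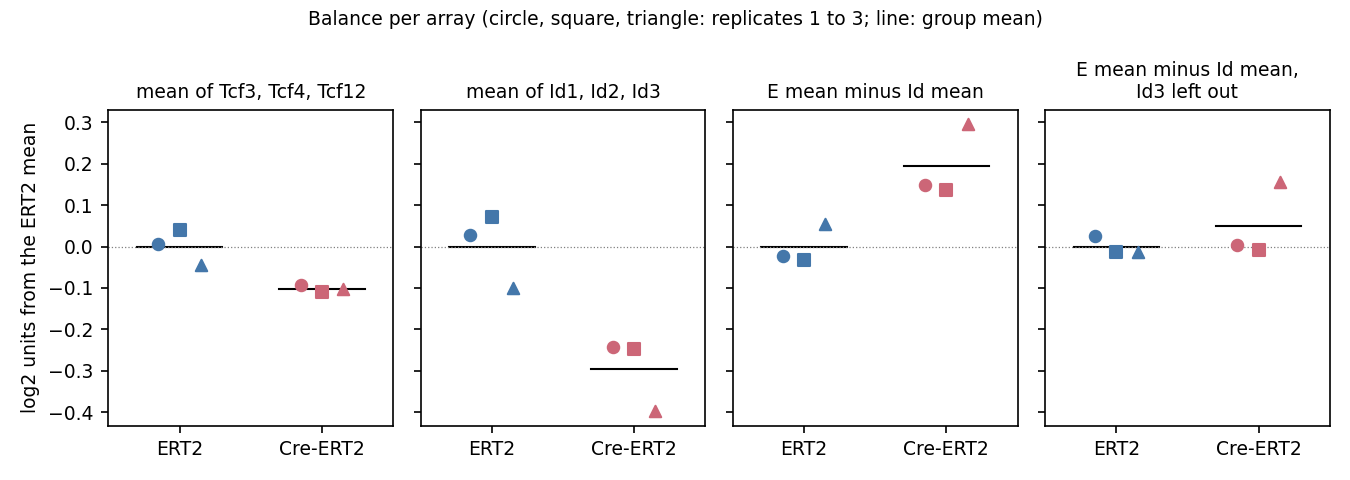
Mean log2 value of the 3 E-protein genes, of the 3 Id genes, and their difference with and without Id3, in log2 units from the ERT2 mean, for each array; lines are group means. The difference is 0.19 higher in Cre-ERT2 arrays with Id3 and 0.05 higher without it, where the groups overlap.

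The genes whose profile lay nearest to that of Id3 over the 6 arrays were Prokr1, a prokineticin receptor, Tmem41a, a membrane protein, and Ydjc. Likeness was the root mean square difference of log2 values centred per gene, which was 0.055, 0.058 and 0.06 log2 units. Their differences were -0.59, -0.55 and -0.55. A profile over 2 groups is set mostly by the difference between them, and these genes are named for that shape alone.

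Genes that E proteins are known to act on in early B cells changed in both directions. Of 30 listed, 28 were measured, 6 fell, 3 rose and 19 did not pass, with a median difference of -0.04 against 0.02 over all genes. The shares called were 3.72% lower and 4.38% higher over all genes. The recombinase gene Rag2 read 584, 598 and 607 in ERT2 and 219, 262 and 223 in Cre-ERT2 cells, and Rag1 read 1332, 1386 and 1048 in ERT2 and 655, 719 and 646 in Cre-ERT2 cells. Both groups of arrays were far apart for these genes, at log2 differences of -1.35 and -0.89. Foxo1, the forkhead factor that switches on the Rag genes, read 3030, 3090 and 2824 in ERT2 and 2023, 2158 and 2101 in Cre-ERT2 cells and fell by 0.51 (limma adjusted p = 0.00317). Il7r, the interleukin 7 receptor, fell by 0.93, Gfi1, a zinc-finger repressor, by 0.60, and Lef1, a partner of beta-catenin, by 0.49.

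On the other side Dntt, the terminal transferase, read 783, 873 and 712 in ERT2 and 2149, 1912 and 1888 in Cre-ERT2 cells and rose by 1.33. Vpreb2, which encodes part of the surrogate light chain, rose by 0.49, and Notch1, the receptor that directs progenitors to the T lineage, rose by 0.47, from 1708 ± 71.2 to 2370 ± 113 (SD, n = 3 each). These 9 genes had limma adjusted p-values from 0.000118 to 0.00595, and the counts of 3 higher and 6 lower held without any 1 of the 6 arrays. Ebf1 and Pax5, which work with E2A to fix the B-lineage programme, did not pass. Ebf1 differed by -0.03 (95% interval -0.13 to 0.07) and Pax5 by -0.22 (95% interval -0.34 to -0.10, limma adjusted p = 0.0552). The surrogate light chain genes Igll1 and Vpreb1 and the receptor chains Cd79a and Cd79b had differences between -0.07 and 0.04.

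Cofactors of E proteins included 2 genes that rose. Cbfa2t3, a corepressor of the ETO family whose members bind E proteins, read 918, 932 and 856 in ERT2 and 1170, 1326 and 1207 in Cre-ERT2 cells, a rise of 0.45 (SE 0.0666, limma adjusted p = 0.0108). These values are of its brightest probe set, and the mean of its probe sets rose by 0.35 (limma adjusted p = 0.0105). Lmo2, the LIM protein that bridges E proteins to other factors in progenitors, read 1362, 1381 and 1211 in ERT2 and 1749, 1820 and 1754 in Cre-ERT2 cells, a rise of 0.43 (SE 0.0649, limma adjusted p = 0.0118). In both genes all Cre-ERT2 arrays lay above all controls. Of 11 cofactors 2 rose and 0 fell, against 4.38% called higher and 3.72% lower over all genes. The other 9 did not pass, the coactivators Ep300 and Crebbp among them, and the median difference of the list was 0.00. Without Cre-ERT2 replicate 2 or 3 the count of rises was 1, as Lmo2 lost its call (0.059 and 0.0561). Tissue-restricted partners that pair with E proteins were not called: 0 of 19 measured passed, against 8.1% of all genes called in either direction. That count is near the share over all genes, and 13 of the 19 were below the median probe set. The smallest p belonged to Mesp1 and Neurod1, with differences of 0.08 and 0.12. The partners Tal1 and Lyl1, known from blood progenitors, differed by 0.00 and 0.02.

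Genes of BMP and TGF-beta signalling, which reaches the Id genes through Smad proteins, were split. The list holds ligands, receptors, Smads and regulators of these. Of 24 measured genes 4 fell, 2 rose and 18 did not pass (median difference -0.02). Over all genes 3.72% were called lower and 4.38% higher. Bmpr1a, a type I BMP receptor, read 612, 737 and 626 in ERT2 and 227, 285 and 258 in Cre-ERT2 cells, so every Cre-ERT2 array lay far below every control. It fell by 1.36 (SE 0.108, limma adjusted p = 0.000763). Acvr2a, a type II receptor for activins and BMPs, read 447, 538 and 436 in ERT2 and 219, 234 and 260 in Cre-ERT2 cells and fell by 0.99 (SE 0.102, limma adjusted p = 0.00234). Tgfbr1, the type I TGF-beta receptor, fell by 1.16, and Smad5, which carries BMP signals to the nucleus, fell by 0.39 (limma adjusted p = 0.0181).

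Tgfbr2, the type II TGF-beta receptor, rose by 0.54, and Bambi, a decoy receptor that dampens both pathways, read 445, 464 and 422 in ERT2 and 600, 614 and 618 in Cre-ERT2 cells and rose by 0.46 (limma adjusted p = 0.00385). The inhibitory Smad6 and Smad7, which BMP and TGF-beta signals induce, differed by 0.06 and 0.15 without passing. With ERT2 replicate 1 or any single Cre-ERT2 array left out, Smad5 no longer passed (limma adjusted p from 0.0613 to 0.0846), which left 3 lower genes.

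Egr factors are induced by antigen receptor signals and switch on Id3 in lymphocytes. Of the 6 measured genes of this list, 4 Egr factors and the 2 corepressors Nab1 and Nab2, 1 fell (Egr1) and 1 rose (Nab1). The shares over all genes were 3.72% lower and 4.38% higher. Egr1 read 466, 477 and 440 in ERT2 and 353, 385 and 366 in Cre-ERT2 cells, a fall of 0.33 (SE 0.0571, limma adjusted p = 0.0225). Nab1, a corepressor that binds Egr proteins, read 3019, 3006 and 3020 in ERT2 and 3609, 3593 and 3523 in Cre-ERT2 cells, a rise of 0.25 (SE 0.0427, limma adjusted p = 0.0217). Egr2 and Egr3 did not pass, with differences of -0.09 and -0.03. Egr1 lost its call without ERT2 replicate 1 or 2 or Cre-ERT2 replicate 1 or 3 (0.0555 to 0.103), and Nab1 without any single array except ERT2 replicate 2 (0.0571 to 0.104).

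Of 6 Ets and Myb family genes that act beside E proteins 2 fell, against 3.72% called lower over all genes. Ets2 read 358, 353 and 332 in ERT2 and 217, 225 and 228 in Cre-ERT2 cells, a fall of 0.63, and Erg, a factor of blood progenitors, fell by 0.33. The count was 1 without Cre-ERT2 replicate 3, where Erg lost its call (0.0516). Of 10 genes that set the stability of E and Id proteins none passed by limma (1 had an unadjusted p under 0.05). The shares over all genes were 8.1% called in either direction and 20.1% with an unadjusted limma p under 0.05. Usp1, which removes ubiquitin from Id proteins, and its partner Wdr48 differed by 0.07 and 0.05, and Skp2, a ubiquitin ligase subunit, differed by -0.08. Asb2, a ubiquitin ligase subunit that targets E proteins, had the smallest p, with a difference of -0.30 (limma adjusted p = 0.0662). Asb2 passed under 6 of the 10 alternatives that used all arrays, among them cyclic loess (0.0417).

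**Figure D4:**
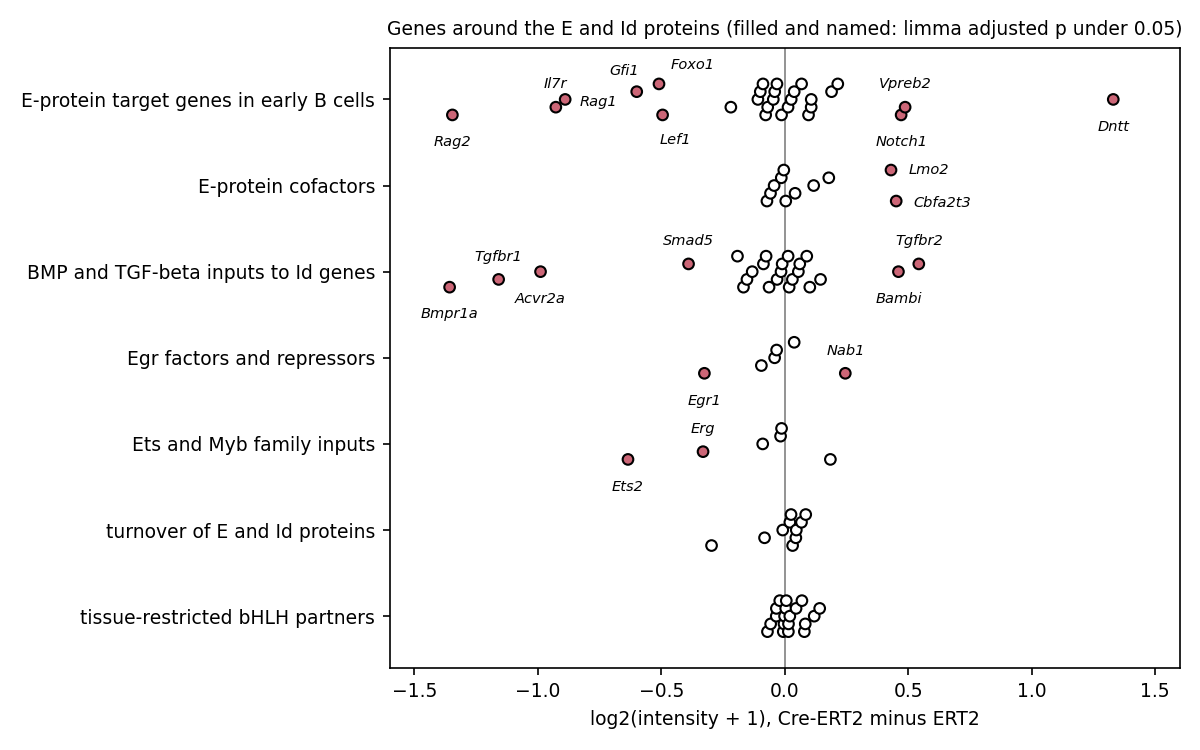
Log2 difference (Cre-ERT2 minus ERT2) of every measured gene in 7 lists around the E and Id proteins, spread vertically within a list for visibility; filled points with names passed limma's adjusted p under 0.05. The lists of target genes and of BMP and TGF-beta inputs have filled points on both sides of 0, and those of protein turnover and tissue-restricted partners have none.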

How the data were processed

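Biotin-labelled total RNA of 6 samples was hybridised to Affymetrix arrays, 1 per sample, per the labels' protocols. The authors deposited 1 intensity per probe set and array, made with RMA (background correction, quantile normalization, with the probes of each set combined), as the submitters' processing notes name it. The sources used here name no software version, annotation or build. Quantile normalization hides a shift shared by all genes. The deposited intensities are linear, so log2(intensity + 1) was analysed, which understates changes of dim probe sets slightly. All 35556 probe sets were tested with limma 3.58.1 in R 4.3.3 (lmFit, eBayes without trend, no covariates, two-sided), with Benjamini-Hochberg adjustment over all of them and a threshold of 0.05. Of these, 21789 name 1 gene, 1621 several and 12146 none. A gene was represented by its brightest probe set. Of the probe sets that name 1 gene, 21698 matched the gene table (GRCm38.p6). Errors are limma's moderated standard errors or SDs, and the number of arrays limits precision. Members and gene lists were chosen with earlier results of these data known. Named beside the members are Sox4, the 3 nearest profiles of each called member, up to 8 called genes of each list, and otherwise the 2 of smallest p. Further genes were picked with their values in view. On simulated data the procedure recovered 2% of probe sets changed by 0.25, 48% of those changed by 0.5 and 92% of those changed by 1. Of its calls there 3.97% were false. A gene that did not pass may therefore still have changed by a small amount. Alternatives were another pseudocount, filter, scaling, variance model, array weights, replicate block, probe-set average and each array left out.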

Additional observations from a re-analysis of the deposited data

How the results depend on the processing

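All 6 members kept a difference below 0 under every alternative run. Several of these alternatives could not change the differences. Filters and variance models leave a fitted difference as it is, and the replicate block is balanced over the groups. The probe-set average changes nothing where a gene has 1 probe set, as each member has. Id3 kept its call under all 10 alternatives that used all arrays (limma adjusted p from 0.00219 to 0.0268). With 1 array left out, Id3 kept its call only without ERT2 replicate 3. With 1 array left out, the number of called members lay between 0 and 1, called probe sets between 1261 and 2184 (2152 with all arrays), higher ones between 606 and 1319, and lower ones between 654 and 883. Estimated array weights gave 4027 called probe sets, 2415 higher and 1612 lower, and 2 called members, since Tcf3 passed too (difference -0.20, limma adjusted p = 0.0462). The balance shift lay between 0.14 and 0.22 with 1 array left out and between 0.19 and 0.20 otherwise. With 1 array left out, the difference of Id4 ranged from -0.11 to 0.031, above 0 without ERT2 replicate 3, and that of Pdgfrb, a stromal marker, from -0.13 to 0.0072, above 0 without Cre-ERT2 replicate 3. The causes were not tested. The labels do not say whether replicate numbers pair the samples, and the arrays do not settle it. Deviations of same-numbered arrays correlated at 0.20, 0.34 and -0.05, and 3 of 6 arrays correlated best with their own number. With the replicate block 1836 probe sets were called, Id3 had limma adjusted p = 0.0165, Nab1 lost its call (0.0679) and Asb2 gained one (0.0445). Median centring and cyclic loess moved the median of all probe sets from 0.02 to 0.01 and 0.00.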
